A study of Mus with 4 samples.

Results

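Synaptic vesicle release genes encode the proteins that hold transmitter vesicles at the membrane of a nerve terminal and fuse them with it when calcium enters. A list of 29 such genes was followed in sensory neurons of the dorsal root ganglion (DRG), in naive mice and after nerve injury. The genes were matched by symbol, and all 29 were found among the 31253 genes of the count matrices. They were sorted by role into 4 SNAREs, 5 synaptotagmins and Doc2 proteins, 5 complexins and Unc13 proteins, 4 active zone genes, 3 Rab3 genes, 3 synapsins, and 5 vesicle membrane and recycling genes.

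The cells came from the L4 and L5 DRGs of wildtype male C57BL/6J mice, whose age at collection is given as 8 weeks for the dissociation and as 6 to 8 weeks for all animals. The control group (CON) was naive, and the other group was taken 3 d after chronic constriction injury (CCI), a model in which the sciatic nerve is loosely tied. Each group held 2 libraries of single cells made with droplets that read the 3′ end of transcripts. How many mice went into each library is not stated. The p-values of CCI against CON therefore reflect only the spread between libraries, which may be technical. Comparisons among CCI neurons were made within each library and rest on the 2 CCI libraries alone. Their p-values reflect how the difference within a library varied between these 2, with the spread estimated partly from other genes.

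As background, a vesicle is tethered by Rab3 proteins and the active zone scaffold, primed by Unc13 proteins and complexins while the SNAREs on vesicle and plasma membrane zip together, and released when a synaptotagmin binds calcium. Synapsins hold the reserve pool, and SV2 proteins and synaptophysin sit in the vesicle membrane. Sensory neurons use this machinery at their central terminals in the spinal cord, and their cell bodies in the DRG make the transcripts.

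Barcodes that passed the cell filter held a median of 2508 to 8352 unique molecular identifiers (UMIs, each 1 captured transcript) in the 4 libraries, and any 2 libraries shared 12 to 31 barcodes. Clusters with neuron markers held 3964 neurons, with 1112 and 333 from the CON libraries and 1530 and 989 from the CCI libraries, each in replicate order, and all 8 neuron markers were counted in each library's neurons. Another 7906 barcodes carried neuron markers at low UMI counts and were kept apart. The labels call every library neuronal, but satellite glia, Schwann cells, fibroblasts, pericytes, endothelial and immune cells were present in all 4. Neurons were clustered again with the release genes left out, and 8 subtypes were named from markers. These were large myelinated neurons (NF2-like), peptidergic nociceptors (PEP1-like and PEP2-like, the latter led by Smr2 but also by Htr3a), non-peptidergic nociceptors with Mrgprd (NP1-like) or Mrgpra3 (NP2-like), Sst and Nppb itch neurons (SST-like), cold-sensing neurons (TRPM8-like) and C-fibre mechanoreceptors with Th (cLTMR-like). A further 4 clusters carried the injury markers Sprr1a, Atf3, Camk1, Flrt3 and Gpr151. They are called injured neurons here and held 337 and 187 neurons in CCI but 5 and 1 in CON. Levels are given as CPM, the UMIs summed over all cells of a kind in a library divided by that sum's total. They are scaled to 1000000 with TMM factors, except where no TMM scaling is stated. They were compared only within a gene, since 3′ counts differ between genes for other reasons, and the scale is set anew in each comparison.

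Most release genes were not spread evenly over the subtypes, and members of one family were often highest in different neurons. The levels by subtype are a description without a test, because the subtypes come from the same cells, and sums of under 20 neurons are not given. NF2-like neurons stood out for SNAREs. Snap25, a plasma membrane SNARE, was at 1777 and 2140.1 CPM in CON and 1366 and 1786 CPM in CCI in NF2-like neurons and at 224 to 1001 CPM in the other 7 subtypes. Vamp1, a vesicle SNARE, was at 309.5 and 363 CPM in CON and 183 and 283 CPM in CCI in NF2-like neurons and at 20.9 to 90.8 CPM elsewhere. Both genes therefore had every NF2-like library above every library of the other subtypes. Stx1a, the syntaxin that pairs with Snap25, had the opposite order, with 6.05 and 8.48 CPM in CON and 11.3 and 9.57 CPM in CCI in NF2-like neurons and 19.4 to 80.1 CPM elsewhere. Vamp2, the paralog of Vamp1, was counted in all subtypes at 278 to 1166 CPM. In CON it was lowest in NF2-like neurons, at 278 to 319 CPM against 444 CPM or more elsewhere. In CCI the NF2-like neurons were at 391 to 755 CPM, which overlapped other subtypes.

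**Figure D1:**
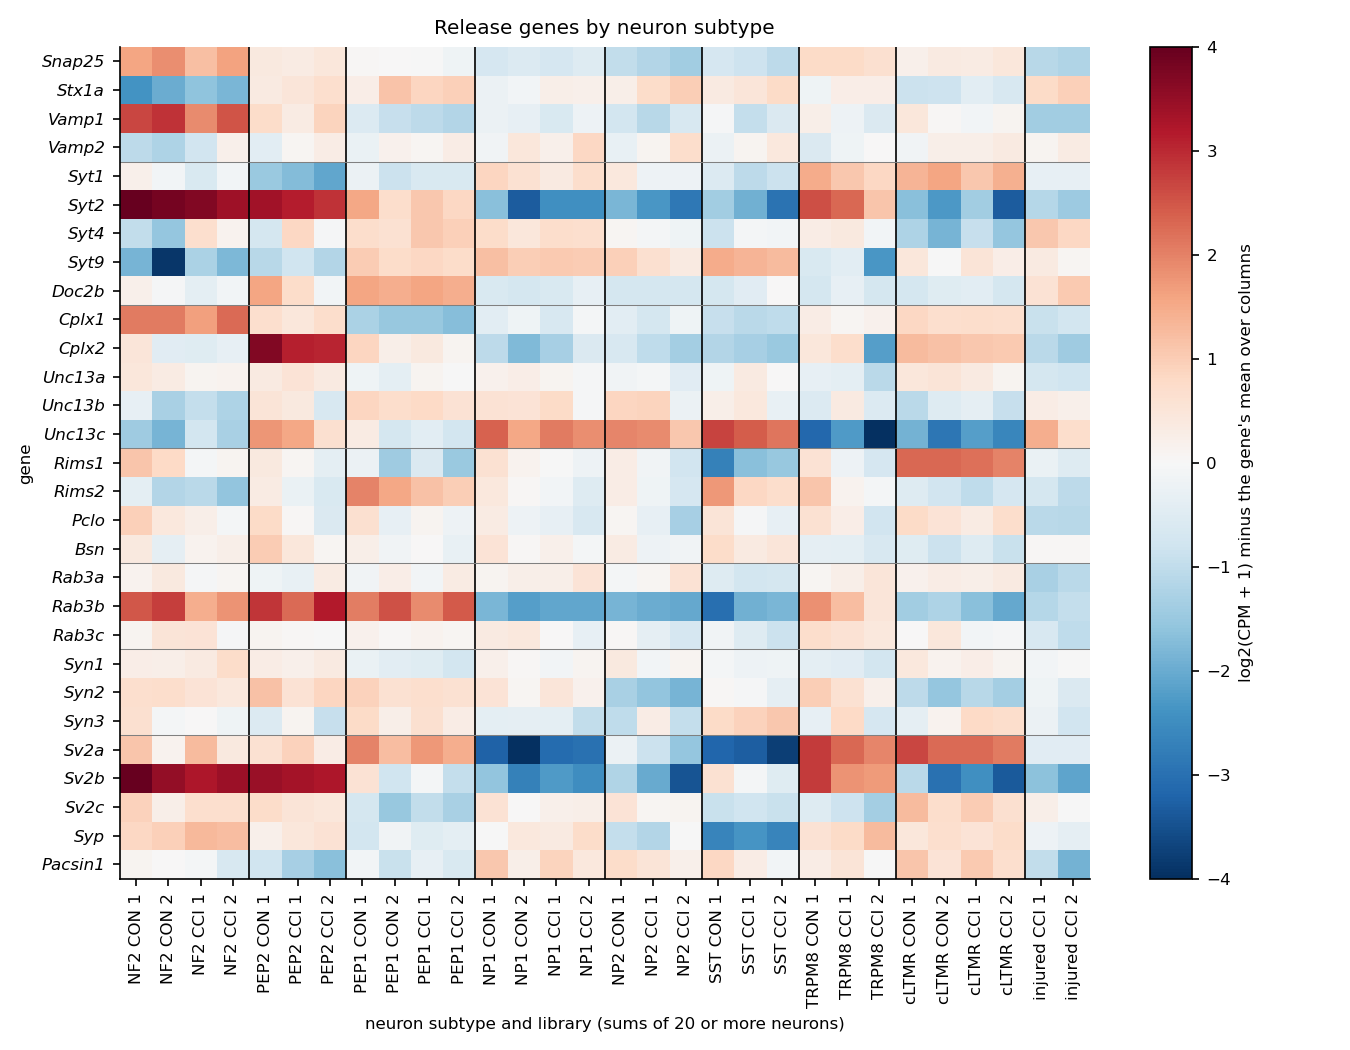
Heat map of the 29 release genes (vertical axis, grouped by role) in each neuron subtype and library (horizontal axis, sums of 20 or more neurons). Colour gives log2(CPM + 1) minus the gene's mean over the columns, red higher and blue lower. Syt2, Sv2b, Vamp1 and Cplx1 are red in the NF2 columns, and the injured columns are blue for Rab3a, Vamp1 and Snap25.

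The calcium sensors divided the subtypes. Syt2, a fast calcium sensor, was at 277 and 249 CPM in CON and 227 and 185 CPM in CCI in NF2-like neurons and at 177 CPM in CON replicate 1 and 153 and 129 CPM in CCI in PEP2-like neurons, and it lay at 0.756 to 5.75 CPM in the NP1-like, NP2-like and SST-like neurons. Syt1, another fast sensor, was highest in cLTMR-like and TRPM8-like neurons. In cLTMR-like neurons it was at 681 and 783 CPM in CON and 559.8 and 706 CPM in CCI. In TRPM8-like neurons it was at 742 CPM in CON replicate 1 and 556 and 465 CPM in CCI. Syt1 was lowest in PEP2-like neurons with 93.3 CPM in CON replicate 1 and 78.5 and 61.8 CPM in CCI. Syt9, a sensor of the same group, was at 136 to 158 CPM in SST-like, 111 to 129 CPM in NP1-like and 2.83 to 22.4 CPM in NF2-like neurons. The SST-like and NP1-like ranges lay apart from NF2-like, and Syt9 and Syt2 were thus high in different neurons. Syt4, a synaptotagmin whose first C2 domain does not bind calcium in the usual way, was at 1025 and 844 CPM in CON and 1009.5 and 979.5 CPM in CCI in NP1-like neurons and at 259 and 169.9 CPM in CON and 327 and 209 CPM in CCI in cLTMR-like neurons. Doc2b, a high-affinity calcium sensor for spontaneous release, was at 3.79 and 3.42 CPM in CON and 3.79 and 3.41 CPM in CCI in PEP1-like neurons, at 3.87 CPM in CON replicate 1 and 1.71 and 0.504 CPM in CCI in PEP2-like neurons, and at 0 to 0.865 CPM in the other 6. A count of 0 allows up to 3 UMIs, which in NP2-like neurons of CON replicate 1, with 0 UMIs of Doc2b, is 1.2 CPM.

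Among the complexins, which clamp and then aid SNARE fusion, Cplx1 was highest in NF2-like neurons with 1066 and 1066 CPM in CON and 783 and 1199 CPM in CCI and at 75.7 to 103 CPM in PEP1-like neurons. Cplx2 was highest in PEP2-like neurons with 339 CPM in CON replicate 1 and 226 and 217 CPM in CCI, and the other subtypes lay at 4.7 to 62.2 CPM. The 2 complexins thus peaked in different subtypes. Of the Unc13 priming factors, Unc13c was highest in SST-like neurons at 85.8 to 129.6 CPM and was at 1.26 CPM in CON replicate 1 and 3.12 CPM in CCI replicate 1 in TRPM8-like neurons. Those of CCI replicate 2 had 0 UMIs of it, which allows up to 2.35 CPM. Unc13a was counted in all subtypes at 18.8 to 59.8 CPM and Unc13b at 2.83 to 16.6 CPM. At the active zone, Rims1, a scaffold that binds Rab3 and Unc13, was at 104 and 106 CPM in CON and 98 and 84.8 CPM in CCI in cLTMR-like neurons and at 2.3 to 45.8 CPM elsewhere. Rims2, its paralog, was highest in PEP1-like neurons with 203 and 151 CPM in CON and 116 and 102 CPM in CCI. The giant scaffolds were more even, with Pclo at 50.9 to 254 CPM and Bsn at 31.3 to 119.9 CPM.

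Rab3a, the main Rab3 of vesicles, ranged over 518 to 1278 CPM and Rab3c over 105 to 308 CPM. Rab3b was at 57.1 CPM in CON replicate 1 and 37.7 and 70.6 CPM in CCI in PEP2-like neurons and at 44.1 and 53.1 CPM in CON and 21 and 27 CPM in CCI in NF2-like neurons, but at 0 to 2.42 CPM in NP1-like, NP2-like, SST-like and cLTMR-like neurons, where the 0 of the SST-like neurons of CON replicate 1 allows up to 1.15 CPM. Rab3b was therefore the Rab3 gene that depended most visibly on subtype. The SV2 transporters of the vesicle membrane also separated the subtypes. Sv2a was at 165 and 126 CPM in CON and 126 and 109.7 CPM in CCI in cLTMR-like neurons. In TRPM8-like neurons Sv2a was at 182 CPM in CON replicate 1 and 129 and 101 CPM in CCI. It lay at 0.303 to 2.35 CPM in NP1-like and SST-like neurons. Sv2b was at 262 and 184 CPM in CON and 152 and 172 CPM in CCI in NF2-like neurons. PEP2-like neurons had 177 CPM of Sv2b in CON replicate 1 and 163 and 151 CPM in CCI, where they overlapped NF2-like neurons. It lay at 0.467 to 6.61 CPM in NP1-like, NP2-like and cLTMR-like neurons. Sv2c, in contrast, was counted in all subtypes at 56.4 to 395 CPM, so the neurons with little Sv2a and Sv2b still had Sv2c. Synaptophysin (Syp), an abundant vesicle protein, was at 32.2 to 39.4 CPM in SST-like neurons and at 91.4 to 505 CPM elsewhere. Pacsin1, which bends membrane during vesicle retrieval, was at 75.4 to 141 CPM in PEP2-like and at 287 to 518 CPM in NP1-like neurons. Among the synapsins, Syn1 lay at 152 to 427 CPM in all subtypes, whereas Syn2 was at 33.6 to 59.3 CPM in NP2-like and cLTMR-like and at 96.4 to 278 CPM in the others. Syn3 did not pass 5.03 CPM in any named subtype. Of the TRPM8-like sums, that of CCI replicate 2 held 27 neurons and 4160.0 CPM of the glial gene Apoe, against 407 CPM in CCI replicate 1 and 2075 CPM in CON replicate 1.

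CCI against CON over all neurons asked whether injury moved the release genes in the ganglion as a whole. Rims1 alone passed the test. It was at 32.8 and 37.5 CPM in CON and 21.2 and 19.6 CPM in CCI, so that both CCI libraries lay below both CON libraries (log2 fold change -0.78 ± 0.18 SE, adjusted p = 0.0401, edgeR quasi-likelihood test with Benjamini-Hochberg adjustment over 15527 genes). Of all genes tested, 4.84% were called, 4.2% as higher and 0.644% as lower, and of the 29 release genes 0 were higher and 1 was lower. The call was lost without CCI replicate 1 (adjusted p = 0.132) and without CCI replicate 2 (adjusted p = 0.324). The other 28 release genes did not pass. The median log2 fold change of the 29 was -0.14, against -0.015 over all genes tested, and 25 of the 29 were below 0. In a sum over neurons, fewer cells of a subtype and less RNA per cell cannot be told apart, and the injured neurons were nearly all in CCI.

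Rims1 and 6 other release genes, 7 in all, had an unadjusted p under 0.05, as did 2713 of all 15527 genes. Rims2 was at 103 and 70.4 CPM in CON and 55.3 and 47.2 CPM in CCI (adjusted p = 0.103). Pclo was at 182 and 129.7 CPM in CON and 108 and 96.1 CPM in CCI (adjusted p = 0.166). Both CCI libraries lay under both CON libraries for Rims1, Rims2 and Pclo, while Bsn overlapped. The share of all genes without overlap was not counted, here or in any comparison below. Nothing particular to the active zone genes is therefore drawn from this. Syt1 was at 370.0 and 379 CPM in CON and 234 and 263 CPM in CCI (adjusted p = 0.113). Syt4 was at 767 and 568 CPM in CON and 1021 and 855 CPM in CCI (adjusted p = 0.274). The sensors thus lay in opposite directions, Syt1 lower and Syt4 higher in both CCI libraries. Sv2a and Rab3c were the remaining 2, with log2 fold changes of -0.54 and -0.44.

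Neurons outside the injured clusters were compared in the same way, which leaves the neurons that did not cluster as injured. None of the 29 release genes was called by edgeR, where 1.08% of all genes were (1.06% higher and 0.0131% lower), while Syt1, Rims1 and Rims2 (3 genes) had unadjusted p-values under 0.05, as did 1351 of all 15248 genes. DESeq2 also called 0. Rims1 was at 33.4 and 38.3 CPM in CON and 23.3 and 21.7 CPM in CCI (log2 fold change -0.67 ± 0.18 SE, adjusted p = 0.189). Its libraries still did not overlap between groups. Snap25 was at 583 and 669 CPM in CON and 577 and 662 CPM in CCI, and Rab3a at 825 and 1003 CPM in CON and 814 and 1026 CPM in CCI. Both genes overlapped between groups, with log2 fold changes of -0.015 ± 0.19 and 0.009 ± 0.21 (SE). The median over the 29 was -0.041. Changes of the size that 2 libraries a group can miss are not shown to be absent.

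**Figure D2:**
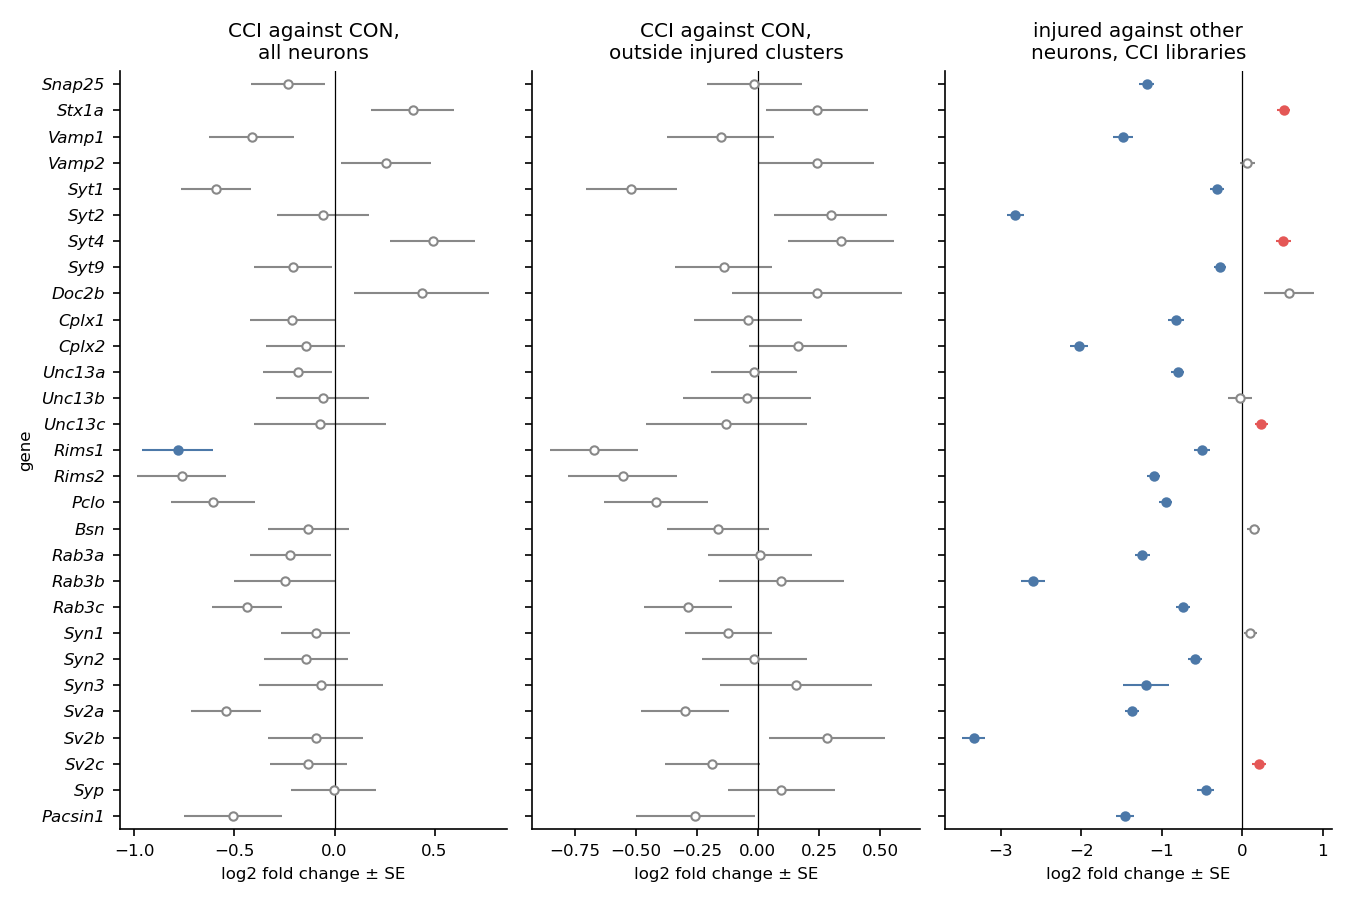
Log2 fold change with its standard error (horizontal axis) of the 29 release genes (vertical axis) in 3 comparisons. Filled red points passed the test as higher, filled blue points as lower, and open grey points did not pass. Over all neurons Rims1 alone is filled, outside the injured clusters none is, and between injured and other neurons 24 are.

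Injured neurons were then compared with the other neurons of the same 2 CCI libraries. The other neurons included 146 and 61 from unnamed clusters in CCI replicates 1 and 2. Which subtypes the injured neurons came from was not determined. A different mix of subtypes and an effect of injury therefore cannot be told apart in comparisons of the injured clusters. Of the 29 release genes 20 were lower, 4 were higher and 5 did not pass. Many genes differed between these neurons, with 56.3% of 14888 genes called in either direction and 28.9% called lower. The median log2 fold change was -0.73 for the release genes and -0.011 for all genes tested. Injured neurons were deeper than the others, with a median of 78212 and 85809 UMIs in CCI replicates 1 and 2 against 48000 and 52863. With no TMM scaling, the 5 satellite glia markers, none at 0, summed to 652 and 974 CPM in injured and 811 and 1015 CPM in other neurons. The 8 immune markers, none at 0, summed to 6.49 and 67.2 CPM in injured and 8.58 and 28.8 CPM in other neurons, likewise unscaled. The part of depth in these results was not tested. Without the neurons with most glial UMIs 23 of the 29 were called, and without the injured cluster with neutrophil genes 22 were. The shares of all genes called in these fits are not given here.

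The Rab3 genes were all lower. Rab3a was at 335 and 382 CPM in the injured neurons of CCI replicates 1 and 2 and at 754 and 951 CPM in the other neurons (log2 fold change -1.24 ± 0.092 SE, adjusted p = 3.44e-07). Rab3c was at 116 and 88.1 CPM in injured and 179 and 159 CPM in other neurons (log2 fold change -0.73 ± 0.085 SE, adjusted p = 1.62e-05). Rab3b was at 2.54 and 2.99 CPM in injured and 13.2 and 21.6 CPM in other neurons (log2 fold change -2.60 ± 0.15 SE, adjusted p = 4.46e-08). For none of the 3 did injured and other neurons overlap, though the share of all genes without overlap was not counted. Rab3a (ENSMUSG00000031840) lies on chromosome 8 from 70754703 to 70758608 of GRCm38.p6, the assembly also called mm10.

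The SNAREs were divided. Vamp1 was at 17 and 16.7 CPM in injured and 39.2 and 58.4 CPM in other neurons (log2 fold change -1.48 ± 0.12 SE, adjusted p = 8.65e-07). Snap25 was at 263 and 239.9 CPM in injured and 535 and 613 CPM in other neurons (log2 fold change -1.19 ± 0.099 SE, adjusted p = 9.36e-07). Both were thus below the level of the other neurons in each library. Stx1a was higher, with 59.8 and 67.7 CPM in injured and 44 and 45 CPM in other neurons (log2 fold change 0.51 ± 0.080 SE, adjusted p = 0.00017). Vamp2 was at 687 and 793 CPM and 621 and 800.4 CPM, which overlapped (log2 fold change 0.066 ± 0.093 SE, adjusted p = 0.574). Vamp1 and Vamp2 are paralogs with the same place on the vesicle, and the test was passed by Vamp1 alone. Vamp1 (ENSMUSG00000030337) lies on chromosome 6 from 125215581 to 125222306 and Snap25 (ENSMUSG00000027273) on chromosome 2 from 136713439 to 136782428.

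Among the vesicle membrane and recycling genes, 4 of 5 were lower. Sv2b was at 3.96 and 2.57 CPM in injured and 33.6 and 34.7 CPM in other neurons (log2 fold change -3.33 ± 0.14 SE, adjusted p = 4.6e-09). Sv2a was at 17.5 and 17.4 CPM in injured and 46.7 and 43.2 CPM in other neurons (log2 fold change -1.37 ± 0.087 SE, adjusted p = 9.56e-08). Sv2c was the exception, with 183 and 152 CPM in injured and 147 and 141 CPM in other neurons (log2 fold change 0.21 ± 0.084 SE, adjusted p = 0.0483). The call of Sv2c was lost with DESeq2 (adjusted p = 0.11) and turned to -0.050 without CCI replicate 1, a fit in which the neurons of both CON libraries joined the other neurons. Pacsin1 was at 117 and 61.9 CPM in injured and 273 and 202 CPM in other neurons (log2 fold change -1.45 ± 0.11 SE, adjusted p = 3.71e-07). Syp was at 170.4 and 152 CPM in injured and 202 and 242 CPM in other neurons (log2 fold change -0.45 ± 0.10 SE, adjusted p = 0.00237). Neither gene overlapped between the 2 kinds of neuron. Of the synapsins, Syn2 (log2 fold change -0.58 ± 0.086) and Syn3 (-1.20 ± 0.29) were lower, Syn3 at 1.33 and 0.625 CPM in injured and 2.71 and 1.84 CPM in other neurons. Syn1 was at 228 and 238 CPM and 210.3 and 223 CPM and did not pass (adjusted p = 0.299).

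**Figure D3:**
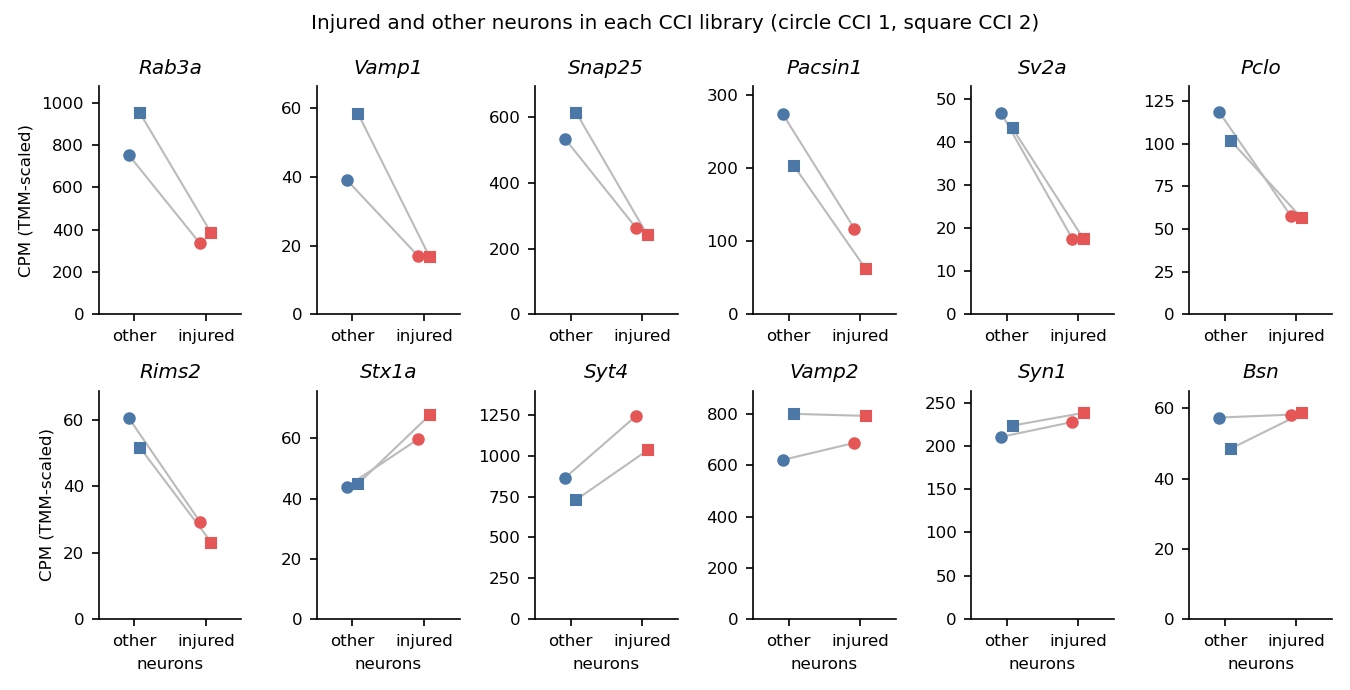
Level in CPM after TMM scaling (vertical axis, from 0) of 12 release genes in the other and the injured neurons (horizontal axis) of CCI replicate 1 (circles) and CCI replicate 2 (squares), with a line joining the 2 values of a library. Rab3a, Vamp1, Snap25, Pacsin1, Sv2a, Pclo and Rims2 run down in both libraries, Stx1a and Syt4 run up, and Vamp2, Syn1 and Bsn did not pass the test.

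Synaptotagmins moved in both directions. Syt2 was at 6.7 and 5.07 CPM in injured and 44.3 and 39.6 CPM in other neurons (log2 fold change -2.82 ± 0.11 SE, adjusted p = 2.02e-09). Syt1 was at 199.6 and 197 CPM in injured and 229.9 and 265 CPM in other neurons (log2 fold change -0.31 ± 0.087 SE, adjusted p = 0.00865). Syt4 was higher, with 1245 and 1035 CPM in injured and 864 and 731 CPM in other neurons (log2 fold change 0.51 ± 0.093 SE, adjusted p = 0.000561). Syt9 was lower by a log2 fold change of -0.27 ± 0.078, and Doc2b, at 1.33 and 2.22 CPM in injured neurons, did not pass. Of the priming genes, Cplx2 was at 11 and 8.26 CPM in injured and 39.3 and 39.8 CPM in other neurons (log2 fold change -2.02 ± 0.11 SE, adjusted p = 3.06e-08), and Cplx1 at 128 and 141 CPM and 201 and 283 CPM (log2 fold change -0.82 ± 0.096 SE, adjusted p = 1.76e-05). Cplx1 was not lower when single neurons with Sprr1a at 500 CPM or more took the place of the injured clusters (log2 fold change 0.069). Unc13a was at 23.4 and 22 CPM in injured and 42.1 and 37.2 CPM in other neurons (log2 fold change -0.80 ± 0.085 SE, adjusted p = 7.33e-06). Unc13c passed as higher by 0.24, overlapped between injured and other neurons, and turned to -0.18 without CCI replicate 1 and to -0.039 with single neurons chosen by Sprr1a. Unc13b did not pass.

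At the active zone, Rims2 was at 29.3 and 23.1 CPM in injured and 60.6 and 51.6 CPM in other neurons (log2 fold change -1.10 ± 0.083 SE, adjusted p = 3.99e-07). Pclo was at 57.9 and 56.3 CPM in injured and 119 and 102 CPM in other neurons (log2 fold change -0.95 ± 0.082 SE, adjusted p = 1.25e-06). Rims1 was at 16 and 13.4 CPM in injured and 21.6 and 20.1 CPM in other neurons (log2 fold change -0.50 ± 0.098 SE, adjusted p = 0.00098). All 3 were lower in both libraries. Bsn was at 58.2 and 58.5 CPM and 57.3 and 48.5 CPM and did not pass (adjusted p = 0.18). With 1 CCI library left out, the injured sum of the remaining one was set against 3 sums of other neurons. These came from its own library and both CON libraries. They supplied the spread, and the injured sum was assumed to vary like them. The share of all genes called is not given for such a fit, so the direction of its calls was not compared with that of all genes. Without CCI replicate 1 or without CCI replicate 2, 12 of the 29 release genes were called in such a fit, all of them lower.

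The other neurons are a mix of subtypes, so the injured clusters were also set against 1 named subtype at a time, a comparison added after the results above were seen. For several release genes the direction depended on the subtype. Syt2 was lower against NF2-like neurons (log2 fold change -5.09) but higher against NP1-like neurons (1.45) by edgeR. DESeq2 called Syt2 higher against 0 of the 8 subtypes (adjusted p = 0.0557 against NP1-like neurons). Sv2a was lower against cLTMR-like neurons (-2.72) and higher against SST-like neurons (3.67). Syp was lower against NF2-like neurons (-1.58) and higher against SST-like neurons (2.18). Both directions of Sv2a and Syp in these subtypes were called by DESeq2 as well. The direction of Sv2a and Syp in the comparison with all other neurons therefore did not hold against every subtype. Nor did that of Syt1, Syt9, Syn2, Cplx1 and Rims1, which both tools called lower against at least 1 subtype and higher against another. Rab3b and Sv2b were higher against 3 and 1 subtypes by edgeR and against 0 by DESeq2. Of the genes called higher, Unc13c and Sv2c were also called lower against at least 1 subtype by both tools.

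Between 13 and 25 of the 29 were called against a given subtype, most against cLTMR-like and fewest against NP2-like neurons, where 56% and 44.9% of all genes were. The shares of all genes were 47.9% for NF2-like, 54.2% for NP1-like, 57.7% for PEP1-like, 42.6% for PEP2-like, 51% for SST-like and 40.9% for TRPM8-like neurons. Of the 29, 2 were called lower against all 8 subtypes, Rab3a and Vamp1, and none was called higher against all 8. Of 12007 genes tested against all 8 subtypes, 1.52% were lower and 3.97% higher against every one. Of all genes tested, between 20% (TRPM8-like) and 28.6% (PEP1-like) were lower against a given subtype. Rab3a had log2 fold changes from -1.62 to -0.53, and DESeq2 also called it lower against all 8. Vamp1 had log2 fold changes from -3.71 to -0.30, and DESeq2 called it lower against 5. In the levels themselves Vamp1, Rab3a and Rab3c were below every named subtype in both CCI libraries. A further 5 genes, Snap25, Pclo, Unc13a, Rab3c and Pacsin1, were lower against 7 of the 8 subtypes by edgeR. DESeq2 called Pclo and Pacsin1 lower against 7, and Snap25, Unc13a and Rab3c against 6. How many of all genes were lower against 7 was not counted. For Snap25 the exception by edgeR was NP2-like neurons (log2 fold change 0.065 ± 0.14 SE, adjusted p = 0.74). Stx1a and Syt4 were called lower against none, and higher against 4 and 5. Vamp2 passed against none of the 8 in either direction.

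The 4 injured clusters were not alike. Sv2a was at 1.45 and 1.16 CPM in the cluster led by Krt16 and Anxa1 but at 34.8 and 30.3 CPM in the largest cluster, led by Ly6g and Phox2a, and at 35 and 29.2 CPM in the cluster led by Crh. Unc13c was highest where Sv2a was lowest, with 75.3 and 52 CPM in the Krt16 cluster, 18.9 and 7 CPM in the largest and 7.4 and 5.27 CPM in the Crh cluster. Syt4 was at 1751 and 1304 CPM in the largest cluster and at 704 and 719 CPM in the Crh cluster. Rab3a lay closer together, at 295 and 337 CPM in the largest, 331 and 372 CPM in the Krt16 and 356 and 385 CPM in the Crh cluster, and at 258 and 302 CPM in the smallest, which was led by neutrophil genes and had 2.25 and 62.4 CPM of S100a8. Vamp1 lay between 12.7 and 20.5 CPM in all 4. These values, with no TMM scaling, are a description.

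All CCI neurons were also graded by their own Sprr1a rather than by cluster. From each class to the next in both CCI libraries, 5 of the 29 genes fell, Pacsin1, Rims2, Snap25, Rab3c and Syn2. How many of all genes fell in this way was not counted. Sprr1a is a cornified-envelope protein gene that injured sensory neurons switch on. Neurons with under 100, 100 to 500, 500 to 2000, and 2000 or more CPM of Sprr1a numbered 1104, 151, 129 and 146 in CCI replicate 1 and 651, 99, 77 and 162 in CCI replicate 2. Pacsin1 was at 279, 138, 123 and 93.6 CPM over these classes in CCI replicate 1 and at 212, 167, 86.4 and 60.2 CPM in CCI replicate 2. Rims2 was at 62.3, 33.8, 26.7 and 25.1 CPM and at 55.3, 32.6, 27.7 and 21.4 CPM. Snap25 was at 516, 403, 352 and 289.9 CPM and at 605, 601, 371 and 317 CPM. These levels, like those of the classes below, carry no test. Rab3a was at 747, 391, 420.1 and 365 CPM and at 977, 872, 459 and 426 CPM, so its neurons with 100 to 500 CPM of Sprr1a were low in CCI replicate 1 but not in CCI replicate 2. Syt4 was highest at 500 to 2000 in both, with 917, 1174, 1199 and 1072 CPM and 749.7, 779.6, 1246 and 926 CPM. The classes are ranges, not cell types, and 121 and 85 neurons lay between 250 and 1000 CPM, near the 500 CPM used above. They also differ in subtype. Of the 275 and 239 neurons at 500 CPM or more in CCI replicates 1 and 2, 199 and 156 were in the injured clusters. Neurons with 100 to 500 CPM held a median of 24892 and 7862 UMIs, fewer than the others, and the part of depth was not tested.

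Within subtypes, CCI was compared with CON in the 4 subtypes with at least 20 neurons in every library, NF2-like, NP1-like, PEP1-like and cLTMR-like. Of 111 pairs of gene and subtype tested, 1 passed, Syt4 in NF2-like neurons. Syt4 was at 314 and 213 CPM in CON and 990.2 and 693 CPM in CCI (log2 fold change 1.67 ± 0.32 SE, adjusted p = 0.00189, edgeR). Both CCI libraries lay far above both CON libraries. In this subtype 3.8% of all genes were called (3.36% higher, 0.434% lower), against 0.387% in NP1-like (0.371% higher, 0.0165% lower), 0.0622% in cLTMR-like and 0.0313% in PEP1-like neurons. NF2-like neurons of CCI also carried Sprr1a, at 1171 and 2024 CPM, and had 0 UMIs of it in CON, which allows up to 1.3 and 1.7 CPM.

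The change of Syt4 after CCI was larger in NF2-like neurons than in the mean of the other 3 subtypes (difference of log2 fold changes 1.42 ± 0.20 SE, adjusted p = 0.000611, interaction in edgeR), where 2.11% of all genes passed, 1.81% as higher. It was at 1006 and 933 CPM in CON and 1295 and 1194 CPM in CCI in PEP1-like neurons, and its levels in NP1-like and cLTMR-like neurons, given above, overlapped between groups. For the contrasts of the other 3 subtypes 0 release genes passed, where 0.037% of all genes did for NP1-like (0.00739% higher, 0.0296% lower), 0.0591% for PEP1-like and 0.0665% for cLTMR-like neurons, with 2, 3 and 2 release genes at an unadjusted p under 0.05 beside 671, 680 and 804 of all 13526 genes. In the PEP2-like neurons, where CON replicate 2 held 3 neurons and no test was made, Syt4 was at 376 CPM in CON replicate 1 and 1089.8 and 597 CPM in CCI. Rab3b and Rims1 missed the threshold in NF2-like neurons. Rab3b was at 44.7 and 53.8 CPM in CON and 21.3 and 27.3 CPM in CCI (adjusted p = 0.0511). Rims1 was at 46.5 and 37.2 CPM in CON and 19.7 and 22.5 CPM in CCI (adjusted p = 0.0645). Neither pair of groups overlapped.

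**Figure D4:**
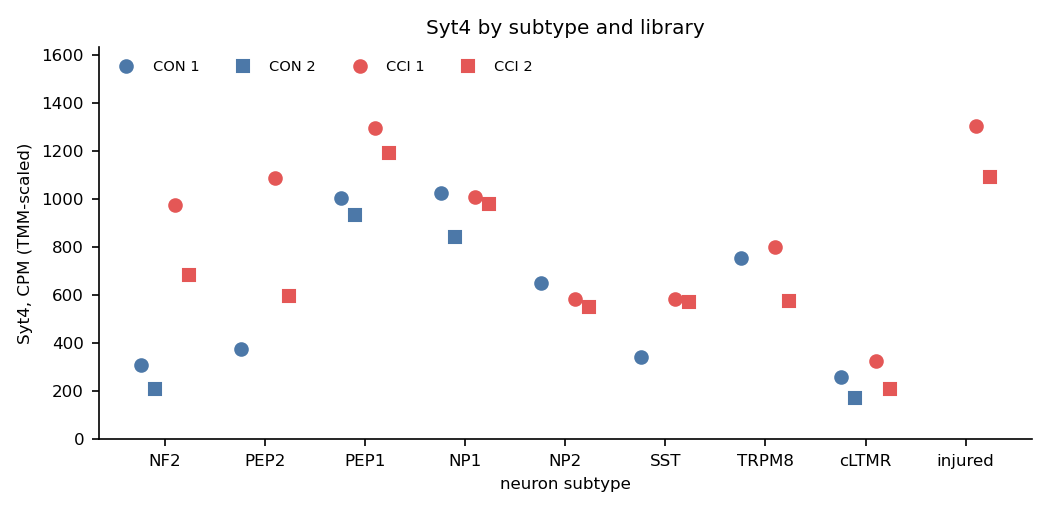
Syt4 in CPM after TMM scaling (vertical axis, from 0) in each neuron subtype (horizontal axis) and library, CON in blue and CCI in red, circles for replicate 1 and squares for replicate 2, where a sum held 20 or more neurons. In NF2 both red points lie above both blue points, and in NP1 and cLTMR the colours overlap.

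NF2-like neurons held Sprr1a-high cells inside 1 named cluster, and these were compared with the other neurons of that cluster, a comparison also added after the data were seen. The cluster passed 6 markers of NF2 but also 5 of NF1, another class of myelinated neuron, and whether it held more than 1 subtype was not tested. In CCI replicates 1 and 2, 20 and 33 NF2-like neurons had Sprr1a at 500 CPM or more, out of 108 and 89. Of 26 release genes tested 10 were lower, 2 were higher and 14 did not pass, where 19% of all genes were called and 8.37% called lower. All these neurons belong to the other neurons of the comparison with the injured clusters. Sv2b was at 62.1 and 79.1 CPM in the Sprr1a-high and 181 and 222 CPM in the other NF2-like neurons of CCI replicates 1 and 2 (log2 fold change -1.51 ± 0.21 SE, adjusted p = 0.000406). Syt2 was at 103 and 107 CPM and 266 and 224 CPM (log2 fold change -1.21 ± 0.20 SE, adjusted p = 0.00139). Both genes, which were high in naive NF2-like neurons, were thus lower in both libraries. Sv2a was at 30.4 and 9.13 CPM and 72.6 and 47.4 CPM (log2 fold change -1.71 ± 0.32 SE, adjusted p = 0.00273). Snap25 was at 866 and 946 CPM and 1492 and 2224 CPM (log2 fold change -1.01 ± 0.16 SE, adjusted p = 0.000768). Pclo was at 79.5 and 83.4 CPM and 176 and 142 CPM (log2 fold change -0.96 ± 0.22 SE, adjusted p = 0.00812). None of these 3 overlapped. Vamp1, Pacsin1, Rims2, Syt1 and Unc13c were the other genes called lower, with log2 fold changes of -0.76, -0.90, -1.03, -0.78 and -1.73.

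Syt4 was higher in these Sprr1a-high NF2-like neurons, at 1213 and 961 CPM against 806 and 456 CPM (log2 fold change 0.83 ± 0.17 SE, adjusted p = 0.00417), and Vamp2 was higher, at 541 and 985 CPM against 299.9 and 554 CPM (log2 fold change 0.84 ± 0.16 SE, adjusted p = 0.00321). Within each library the Sprr1a-high value was the higher one. Rab3a, which was lower against every subtype, did not pass here, at 724 and 605 CPM and 810.5 and 1047 CPM (log2 fold change -0.48 ± 0.18 SE, adjusted p = 0.0777). Cplx1 was at 729 and 1125 CPM and 754 and 1169.8 CPM (adjusted p = 0.844). Doc2b, Unc13b and Syn3 had too few UMIs for the test. The Sprr1a-high neurons held more UMIs, with medians of 92099 and 61216 against 24959 and 36928, and among neurons above 20000 UMIs 10 were lower and 2 higher. Depth was still unequal there, with medians of 99291 UMIs in 17 Sprr1a-high and 34440 in 53 other neurons of CCI replicate 1, and 62162 in 30 and 57069 in 39 of CCI replicate 2. DESeq2 called 4 lower and 2 higher, and the fit without the library block called Sv2b and Syt2 alone.

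**Figure D5:**
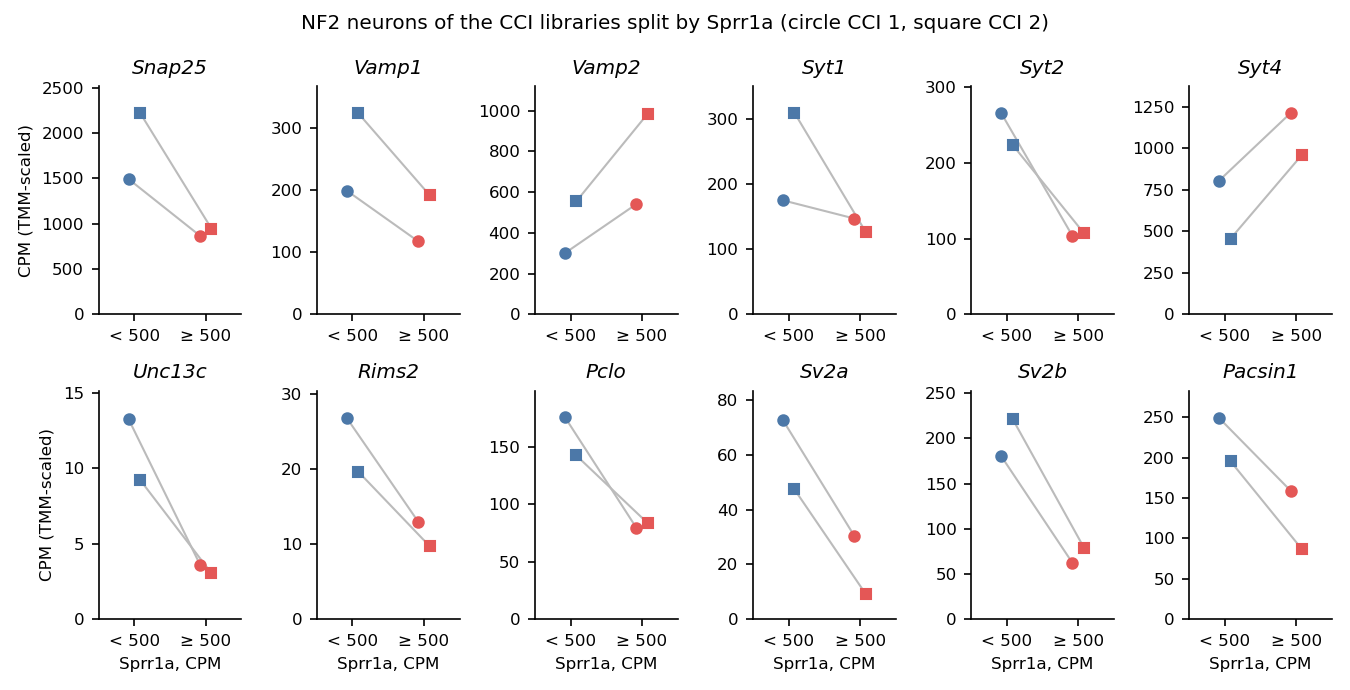
Level in CPM after TMM scaling (vertical axis, from 0) of the 12 release genes that passed the test in NF2-like neurons of the CCI libraries, split at 500 CPM of Sprr1a (horizontal axis), with circles for CCI replicate 1 and squares for CCI replicate 2 and a line joining the 2 values of a library. Vamp2 and Syt4 run up and the other 10 run down in both libraries.

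Levels in the other cells of the ganglion were read against the neurons, since droplets also count free RNA. The levels in this paragraph carry no TMM scaling. Neurons were set beside satellite glia, Schwann cells, fibroblasts, pericytes, endothelial and immune cells. The low-UMI barcodes with neuron markers and the remaining clusters were left out. For 21 of the 29 genes neurons had the highest level of these cell types in each of the 4 libraries. Syt1 was at 389.6, 379.5, 235 and 249 CPM in neurons (CON, then CCI libraries, in replicate order), and at 29.9, 2.3, 15.9 and 6.56 CPM in satellite glia. Syn3 was the clear exception, at 2.32, 2.12, 2.49 and 1.54 CPM in neurons, 25.4, 52.4, 17.4 and 26.3 CPM in Schwann cells and 39.5, 65.4, 24.1 and 22.3 CPM in pericytes. Its values in these cells lay above the neurons in every library. Sv2b was at 38.7, 22.3, 27.2 and 26.8 CPM in neurons and 51.3, 42.8, 39 and 26.8 CPM in satellite glia, and Unc13b at 12.2, 10.1, 12.4 and 8.01 CPM in neurons and 13.4, 16.8, 11.8 and 12.7 CPM in endothelial cells. Cplx2, Rab3b, Syt2, Vamp1 and Doc2b were the others not highest in neurons in every library. Whether free RNA or transcription in these cells gave the counts was not tested.

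A list of 82 further release genes was put through the same comparisons. Over all neurons, Sytl2, a Rab27 effector, was higher in CCI, at 39.3 and 47.8 CPM in CON and 82.6 and 89.6 CPM in CCI (log2 fold change 0.98 ± 0.19 SE, adjusted p = 0.0185). Its partner Rab27b was lower, at 165 and 137 CPM in CON and 94.3 and 74.7 CPM in CCI (log2 fold change -0.84 ± 0.20 SE, adjusted p = 0.0479), as was the vesicular glutamate transporter Slc17a8, at 9.49 and 15.3 CPM in CON and 4.17 and 5.89 CPM in CCI (log2 fold change -1.30 ± 0.28 SE, adjusted p = 0.0347). The other 76 of 79 tested did not pass, so that 3.8% of the list was called, beside the 4.84% of all genes. In injured against other neurons 19 were higher and 36 lower of 79, beside 27.4% of all genes called higher and 28.9% called lower. Among the lower ones, Rab27b was at 13.5 and 7.71 CPM in injured and 117 and 91.1 CPM in other neurons, and its effector Rph3a, which also binds Rab3a, at 10.6 and 5.35 CPM and 92.1 and 94.7 CPM. Lin7b, an active zone adaptor, and the endocytic genes Amph and Sh3gl2 had log2 fold changes of -3.25, -1.66 and -1.62. Slc17a8, the marker of cLTMR-like neurons, had 2 and 0 UMIs in injured and 354 and 322 UMIs in other neurons. Higher genes included Sytl2 at 136 and 150.2 CPM and 57.3 and 62.8 CPM, the scaffold kinase Cask at 80.8 and 89.3 CPM and 40.7 and 44.1 CPM, and the SNARE Vamp3 at 18.5 and 17.1 CPM and 10.4 and 10.6 CPM. Slc17a6, the main glutamate transporter of DRG neurons, was also higher (log2 fold change 0.58 ± 0.082). The median over the 79 was -0.17, beside -0.73 for the 29.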

How the data were processed

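UMI counts of dissociated L4 and L5 DRG cells were analysed in 2 CON and 2 CCI libraries. According to the study's methods and processing notes, the authors filtered reads in fastp and used Cell Ranger with the mm10 genome for alignment and counting. The deposited matrices hold raw UMI counts per gene and barcode, without normalization, so that precision rests on the UMIs summed.

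The cell filter required over 500 genes and less than 20% of UMIs from mitochondrial genes, and cells were normalized and integrated in Seurat 5.3.0 (sctransform 0.4.2, R 4.3.3, 2000 features, 10 principal components, resolution 0.8). No doublet caller was run. Neurons were clustered again with 111 release genes left out of the features. Clusters were named when at least 3 markers reached 1.5 times their mean in all remaining cells, and "-like" marks such names. Rules that left clusters unnamed or kept low-UMI barcodes apart were set after the clusters had been seen, and names may differ from those of the study. Members and lists were chosen with earlier results of these data known.

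UMIs were summed per library and tested with edgeR 4.0.16 (quasi-likelihood, TMM, filterByExpr, adjusted p under 0.05). The injured comparison had the library as a block, and the interaction likewise. The alternative tool was DESeq2 1.42.0. By rule, values in every library were given for up to 14 called release genes by size of change, up to 8 paralogs, and up to 3 other release genes per group and direction. Stx1a, Syp and Bsn were added after their values had been seen. Counts were also simulated with 100 genes changed by 1 and 100 by 2 on the log2 scale. On 15527 genes, the all-neuron fit found 67% and 97% of these, and it also called 29 unchanged genes. The injured fit on 14888 genes found 83% and 99% and called 24 unchanged genes. Only well-counted genes were changed, so the rates do not cover sparse genes. Few genes were changed, evenly up and down, whereas 56.3% of genes were called in the injured comparison of the data. The rates therefore do not cover change on that scale. Coordinates are from RefSeq. Sequences are not used here.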

Additional observations from a re-analysis of the deposited data

Results flagged for a closer look

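The effect of CCI differed between subtypes for 1 release gene. Syt4 rose more in NF2-like neurons than in the mean of NP1-like, PEP1-like and cLTMR-like neurons, by 1.42 ± 0.20 (log2, SE; edgeR interaction, adjusted p = 0.000611). The difference was past the threshold in all 10 alternatives run for it. Of the 82 other release genes, Lin7b fell more in NF2-like neurons, by -1.26 ± 0.24 (adjusted p = 0.00838). It was at 50.4 and 83.1 CPM in CON and 23.9 and 25.5 CPM in CCI within that subtype. Groups of 2 libraries are too small to test for a library that stands apart.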

How the results depend on the processing

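The deposited labels number the replicates of both groups, and same-numbered libraries deviated together (correlation 0.377), but 2 pairs do not show that the numbers pair them. A replicate block raised the calls among the 29 release genes from 1 to 7 over all neurons, from 0 to 1 outside the injured clusters, and from 1 to 7 pairs within subtypes. Over all neurons DESeq2 called 3, no filter on low counts gave 2, and leaving out a library gave 0 to 4. Outside the injured clusters leaving out a library gave 0 to 1. Within subtypes upper-quartile factors, no filter and stricter cell limits each gave 2 pairs, and leaving out a library 1 to 5, with a lone library assumed to vary like the others. For the interaction no filter gave 4 and leaving out a library 1 to 2. For injured neurons leaving out a CCI library, with CON neurons added to the other neurons, gave 12 to 12, not 24, and the other alternatives gave 17 to 24. Against NP2-like neurons DESeq2 called 4, not 13, and for Sprr1a-high NF2-like neurons DESeq2 called 6 and the fit without the library block 2, not 12. Leaving out a CCI library gave log2 fold changes of -0.18 to 0.42 for Unc13c and -0.050 to 0.24 for Sv2c, the negative values without CCI replicate 1. Signs also turned with single neurons chosen by Sprr1a for Cplx1 (0.069) and Unc13c (-0.039). The cause was not tested. Depth limits the sparse genes Doc2b, Unc13b and Syn3. Shares of all genes called in the alternatives are not given here, so their counts do not show whether release genes moved more than other genes.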
